A study of Homo sapiens with 18 samples.

Results

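Signals from the B cell antigen receptor are restrained by a small set of inhibitory receptors, adaptors, kinases and phosphatases. The levels of 10 such genes, out of 60483 gene identifiers in the count tables, were followed through treatment of a lymphoma cell line with a PI3K inhibitor. They were chosen by name: the inhibitory receptors CD22, CD72, FCGR2B, LAIR1 and LILRB1, the adaptors DOK3 and PAG1, the kinase CSK, and the phosphatases PTPN6 and PTPN22. The rule itself uses names only, but the set was put together when earlier results of these data were known. All 10 passed the filter on low counts.

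The cells were HAIR-M, a human line labelled MZL (marginal zone lymphoma, which arises from mature B cells). They were exposed to 5 nM copanlisib, which blocks the lipid kinases of the PI3K family, for 4, 8 or 12 h, or to its solvent DMSO for the same times. Each of the 6 groups had 3 RNA-seq libraries, 18 in all, from this 1 line and with no genetic change stated. Nothing in the labels ties replicates to separate cultures, so p-values measure only the spread between libraries, which may be technical.

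As background, an engaged antigen receptor is phosphorylated by Src family kinases such as LYN, and LYN also phosphorylates inhibitory motifs in the tails of receptors such as CD22, CD72 and FCGR2B. Those motifs recruit phosphatases. SHP-1, the protein of PTPN6, takes phosphate off tyrosines of signalling proteins, and SHIP-1, the protein of INPP5D, breaks down the lipid that PI3K makes. CSK, which PAG1 can anchor at the membrane and which binds the phosphatase of PTPN22, keeps Src family kinases in their closed form.

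With copanlisib, PTPN6 fell by 42.5% at 4 h, 38.1% at 8 h and 35.8% at 12 h, on the log2 scale the largest change among the 10 genes at each time. The receptors LAIR1, LILRB1 and CD72 were higher at all 3 times and FCGR2B was higher at 4 and 8 h, by 13.4% to 44.3%. The adaptor DOK3 was lower at all 3 times, PAG1 was lower with its larger changes at 8 and 12 h, and PTPN22 was lower at 12 h. CD22, the most abundant receptor of the set per length, passed the test at no time.

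Gene reads per library ran between 13587017 and 25566761. The 10 B cell markers summed to 3870 to 5079 CPM (the reads of a gene relative to the TMM-scaled size of its library). Among them CD74 reached 3209 CPM and the next, CD79A, 482.5 CPM. The T cell genes CD3D and CD3G had no read and the monocyte gene CD14 stayed at or below 0.468 CPM, while other markers of those cells were present, among them NKG7 with at most 16.9 CPM, CD4 with 4.99, ITGAM with 5.34 and CSF1R with 4.19. Retinas are named in the labels' extraction protocol although the samples are a lymphoma line, and 2 of 12 retina markers reached 1 CPM, PDE6B with at most 10.3 CPM and NRL with at most 3.45 CPM. The libraries copanlisib 4 h replicate 1 and replicate 2 differed from the rest, with 8.73% and 5.22% unmapped reads against 1.74% to 2.82% in the other 16. Against replicate 3 of their own group, their counts gave a chi-square per gene of 19.9 and 15.8, where other replicate pairs gave 1.52 to 2.94. Effects at 4 h also varied with gene GC content: the median log2 fold change was 0.12 in the fifth of genes lowest in GC and -0.21 in the fifth highest in it, which holds PTPN6 and CSK. Results of the 10 genes at 4 h are therefore also given with replicate 3 alone and after removal of each library's trend with GC content, and those of other genes where the call or the value changed (by over 1.5 times). Replicate 3 alone is a fit without replicates 1 and 2, in which the lone copanlisib 4 h library is assumed to vary like the other groups.

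In the hg38 annotation PTPN6 is at chr12:6946468-6961316 on the plus strand and CSK at chr15:74782057-74803198 on the plus strand. DOK3 is at chr5:177501907-177511274 and CD72 at chr9:35609533-35646810, both on the minus strand. FCGR2B, at chr1:161663147-161678654 on the plus strand, and PTPN22, at chr1:113813811-113871759 on the minus strand, share chromosome 1. Chromosome 19 carries CD22 at chr19:35319261-35347355 on the plus strand, LAIR1 at chr19:54351384-54370558 on the minus strand and LILRB1 at chr19:54617158-54637528 on the plus strand.

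The promoter windows of the gene that fell most and of 3 receptors that were higher (CD72, FCGR2B and LAIR1, without LILRB1) are shown, since these genes moved in opposite directions. Each window runs from 250 bases before to 50 bases after a RefSeq start on GRCh38.p14, printed 5′ to 3′ on the strand of the gene. Capitals mark 2 motifs, searched on both strands and chosen after the sequences had been seen. GTAAAC (other strand GTTTAC) is a core bound by FOXO factors, which PI3K signalling keeps out of the nucleus, and GAGGAA (other strand TTCCTC) is a core bound by ETS factors such as PU.1. PTPN6 has an upstream window at chr12:6946327-6946626 and a downstream window at chr12:6951106-6951405. The CD72 window is chr9:35618364-35618663, and the FCGR2B window at the annotated start of the gene is chr1:161662893-161663192. LAIR1 has an upstream window at chr19:54370509-54370808 and a downstream window at chr19:54364882-54365181.
PTPN6 upstream: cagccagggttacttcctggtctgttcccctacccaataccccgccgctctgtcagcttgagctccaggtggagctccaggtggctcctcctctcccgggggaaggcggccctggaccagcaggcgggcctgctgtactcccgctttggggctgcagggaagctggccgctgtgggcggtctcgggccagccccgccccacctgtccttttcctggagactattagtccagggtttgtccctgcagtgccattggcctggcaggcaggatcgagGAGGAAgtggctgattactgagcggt
PTPN6 downstream: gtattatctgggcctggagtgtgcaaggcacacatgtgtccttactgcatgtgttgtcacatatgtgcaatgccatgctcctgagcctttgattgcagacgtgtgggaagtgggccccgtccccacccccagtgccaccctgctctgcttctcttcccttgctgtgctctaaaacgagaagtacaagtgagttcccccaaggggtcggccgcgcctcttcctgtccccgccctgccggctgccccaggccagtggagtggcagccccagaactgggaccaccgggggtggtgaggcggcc
CD72: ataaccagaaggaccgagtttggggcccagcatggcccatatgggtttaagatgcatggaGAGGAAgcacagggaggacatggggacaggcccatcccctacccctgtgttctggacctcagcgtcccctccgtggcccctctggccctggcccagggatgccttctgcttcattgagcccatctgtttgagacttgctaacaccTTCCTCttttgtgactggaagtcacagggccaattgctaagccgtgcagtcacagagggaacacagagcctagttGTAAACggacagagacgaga
LAIR1 upstream: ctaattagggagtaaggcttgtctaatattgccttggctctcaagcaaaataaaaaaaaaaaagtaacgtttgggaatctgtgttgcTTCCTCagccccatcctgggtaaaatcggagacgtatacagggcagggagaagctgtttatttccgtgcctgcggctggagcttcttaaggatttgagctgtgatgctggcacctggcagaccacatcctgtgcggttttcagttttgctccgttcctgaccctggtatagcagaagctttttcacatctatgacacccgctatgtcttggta
LAIR1 downstream: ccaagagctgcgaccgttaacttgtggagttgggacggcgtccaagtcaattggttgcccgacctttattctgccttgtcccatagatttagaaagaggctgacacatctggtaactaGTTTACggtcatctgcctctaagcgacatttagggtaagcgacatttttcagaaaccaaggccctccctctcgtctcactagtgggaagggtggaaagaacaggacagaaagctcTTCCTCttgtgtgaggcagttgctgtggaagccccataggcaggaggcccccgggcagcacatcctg
FCGR2B: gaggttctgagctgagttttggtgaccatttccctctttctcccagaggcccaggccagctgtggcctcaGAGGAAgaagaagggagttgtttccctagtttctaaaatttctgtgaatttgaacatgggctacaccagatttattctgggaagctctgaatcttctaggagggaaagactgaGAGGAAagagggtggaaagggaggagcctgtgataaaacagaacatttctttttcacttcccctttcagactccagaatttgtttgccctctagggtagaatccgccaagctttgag
The RefSeq table held 15 windows for 9 of the 10 genes. GTAAAC was in 3 of these windows, those of CD72, PTPN22 and the downstream start of LAIR1, and in 7.2% of all 35116 windows of this length. Of the genes with GTAAAC, CD72 and LAIR1 were higher with copanlisib and PTPN22 was lower at 12 h. LILRB1, also higher with copanlisib but not shown, had no GTAAAC in its windows. The FCGR2B window at chr1:161646993-161647292, not shown either, held neither motif. GAGGAA was in 8 of the 15 windows and in 27.9% of all windows. Nothing is read from these counts beside the shares, since the motifs were picked with the sequences in view and some LILRB1 windows overlap. A match describes letters in a window and shows no binding, and the counts per gene do not tell which start was used.

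At 4 h, 8 of the 10 genes were called by edgeR's quasi-likelihood test at an adjusted p under 0.05 (Benjamini-Hochberg over 16122 genes, as for every adjusted p given here), where 38.4% of all genes were called. Of these, 4 were higher (17.7% of all genes) and 4 lower (20.7%). At 8 h, 7 were called against 33.1% of all genes, with 4 higher (14.8%) and 3 lower (18.3%). At 12 h, 7 were called against 30.3% of all genes, with 3 higher (13.8%) and 4 lower (16.5%). Those counts lie above the background shares at each time, but nothing is read from that, since the genes are few and were picked with earlier results known. The libraries of copanlisib and DMSO did not overlap for 6 genes at 4 h, 8 at 8 h and 8 at 12 h, beside 38.9%, 50.7% and 46.0% of all genes. The median log2 fold change of the 10 genes was 0.05, -0.03 and 0.05 at 4, 8 and 12 h, beside 0.01, 0.02 and 0.00 over all genes, so the set did not shift as a whole. The number called at 12 h was 4 without copanlisib 12 h replicate 1, 4 without copanlisib 12 h replicate 2 and 3 without DMSO 12 h replicate 1.

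**Figure D1:**
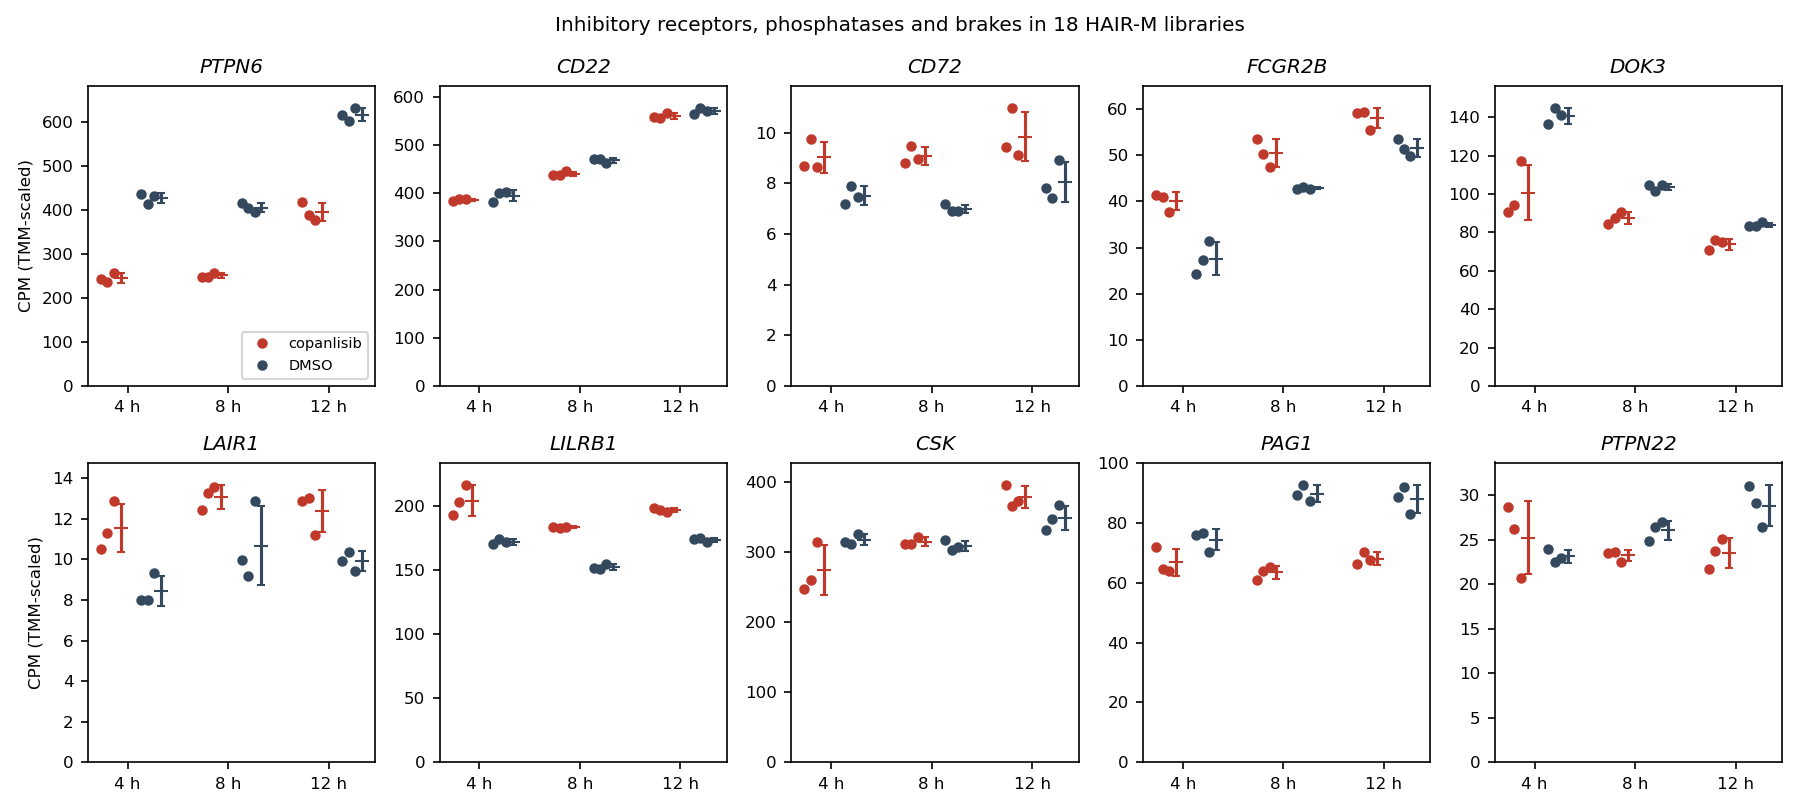
Level of each of the 10 genes in CPM (vertical axis from 0, TMM-scaled) at 4, 8 and 12 h, with red points for the 3 copanlisib libraries, dark points for the 3 DMSO libraries and the mean ± SD beside them. PTPN6 lies lower in every copanlisib library than in the DMSO libraries of its time, at 236 to 258 against 415 to 437 CPM at 4 h.

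**Figure D2:**
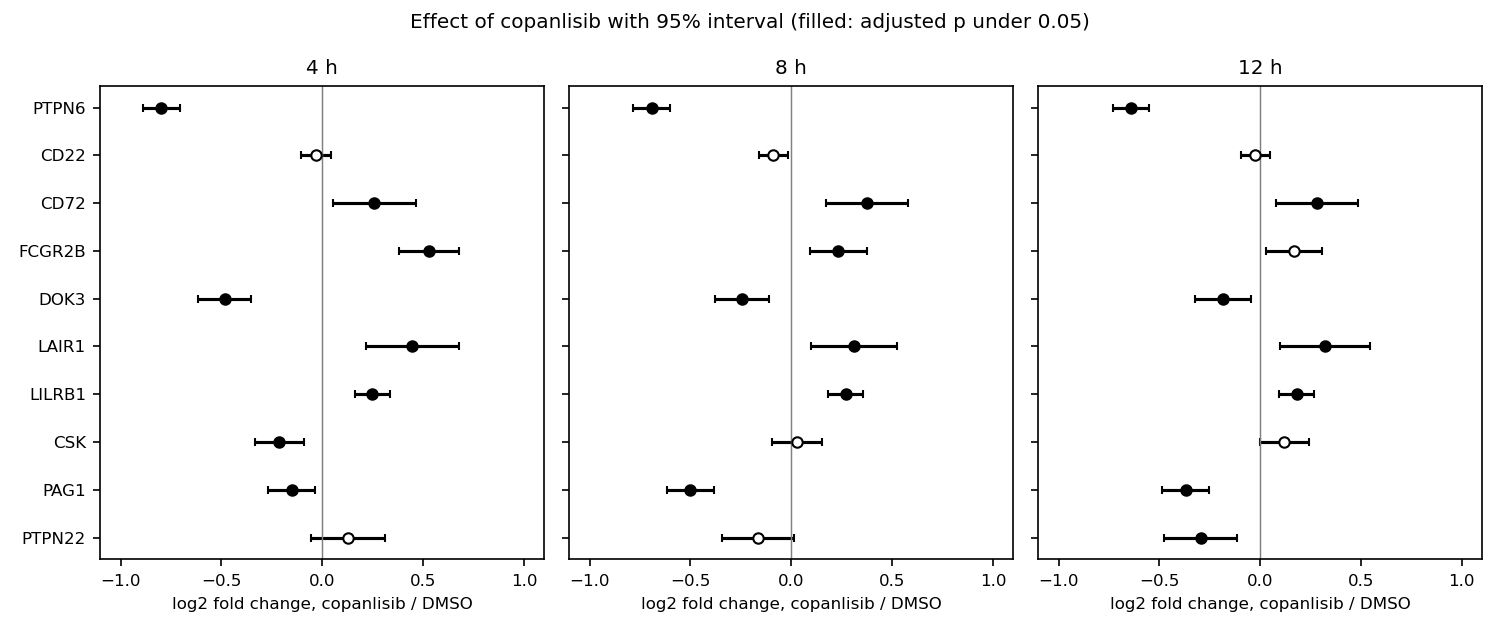
Log2 fold change of copanlisib over DMSO for the 10 genes at 4, 8 and 12 h with its 95% interval, filled where the adjusted p was under 0.05. PTPN6 is at -0.80, -0.69 and -0.64, while CD22 is at -0.03, -0.09 and -0.02.

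Among the receptors, CD22 binds sialic acid on cell surface sugars and recruits SHP-1. At 4 h it had 384, 388 and 388 CPM in the copanlisib libraries, against 381, 401 and 402 CPM in the DMSO libraries. At 8 h it had 437, 438 and 445 CPM with copanlisib and 471, 471 and 462 CPM with DMSO, and at 12 h 558, 556 and 566 CPM with copanlisib and 563, 576 and 570 CPM with DMSO. The groups overlapped at 4 and 12 h and were apart at 8 h. Its log2 fold change was -0.03 at 4 h (95% interval -0.10 to 0.04, adjusted p = 0.54), -0.09 at 8 h (-0.16 to -0.01, adjusted p = 0.059) and -0.02 at 12 h (-0.10 to 0.05, adjusted p = 0.67). At 4 h the value was -0.02 with replicate 3 alone (adjusted p = 0.78) and 0.04 after removal of the GC trend (adjusted p = 0.33). The 8 h value passed the test under 6 of 10 other settings, with values of -0.15 to -0.07 over all 10. After removal of the GC trend it was -0.15 (adjusted p = 0.0004). It also passed without copanlisib 4 h replicate 1, 2 or 3 or copanlisib 12 h replicate 1 (-0.10 to -0.09, adjusted p of 0.018 to 0.046).

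FCGR2B encodes the inhibitory receptor for IgG, which recruits SHIP-1. The copanlisib libraries had 41.4, 41.1 and 37.7 CPM at 4 h, against 24.2, 27.2 and 31.5 CPM in the DMSO libraries. At 8 h the values were 53.6, 50.2 and 47.5 CPM with copanlisib and 42.7, 43.1 and 42.7 CPM with DMSO. At 12 h they were 59.1, 59.5 and 55.6 CPM with copanlisib and 53.6, 51.3 and 49.9 CPM with DMSO. Every copanlisib library was above every DMSO library of its time, with the widest gap at 4 h. The log2 fold change was 0.53 ± 0.07 at 4 h (SE, adjusted p = 2.3e-06), 0.23 ± 0.07 at 8 h (adjusted p = 0.009) and 0.17 ± 0.07 at 12 h (adjusted p = 0.058). In bulk RNA, fewer cells of a type and less RNA per cell cannot be told apart, for this and every other gene. With replicate 3 alone the 4 h value was 0.44 (adjusted p = 0.00012), and after removal of the GC trend 0.53 (adjusted p = 1.2e-08). The 8 h call was lost without copanlisib 8 h replicate 1 (0.19, adjusted p = 0.064). The 12 h value passed the test under 4 of 10 other settings and without copanlisib 4 h replicate 1 or 3 or DMSO 4 h replicate 1 or 3 (0.17, adjusted p of 0.014 to 0.05). Its close relatives were lower, FCGR2C at 8.11 to 20.2 CPM and FCGR2A at 1.03 to 2.63 CPM. How shared reads were split between FCGR2B and FCGR2C is uncertain, since multi-mapping reads were set aside in the counting.

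LILRB1 encodes a receptor for class I HLA molecules. In the copanlisib libraries it had 193, 204 and 217 CPM at 4 h, 184, 183 and 184 CPM at 8 h and 199, 197 and 196 CPM at 12 h. In the DMSO libraries it had 170.3, 174 and 172 CPM at 4 h, 152, 151 and 155 CPM at 8 h and 175, 175 and 172 CPM at 12 h. Copanlisib libraries lay above DMSO libraries at each time with no overlap. As a log2 fold change this was 0.25 ± 0.04 at 4 h (adjusted p = 3.4e-05), 0.27 ± 0.04 at 8 h (adjusted p = 1.3e-05) and 0.18 ± 0.04 at 12 h (adjusted p = 0.0014). The calls held under all 10 other settings and without any 1 library, and the 4 h value was 0.34 with replicate 3 alone and 0.34 after removal of the GC trend. Of its relatives, LILRB4 had 37.7 to 61.3 CPM, LILRA1 3.48 to 8.39 CPM and LILRB2 at most 3.93 CPM, while LILRB3 stayed at or below 0.484 CPM and LILRB5 at or below 0.218 CPM.

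LAIR1, a receptor for collagens, was scarce, with at most 358 reads per library. It had at 4 h 10.5, 11.3 and 12.9 CPM in the copanlisib libraries, against 7.99, 8.02 and 9.31 CPM in the DMSO libraries. At 8 h it had 12.4, 13.3 and 13.6 CPM with copanlisib and 9.97, 9.20 and 12.9 CPM with DMSO, and at 12 h 12.9, 13.04 and 11.2 CPM with copanlisib and 9.92, 10.4 and 9.41 CPM with DMSO. The groups overlapped at 8 h, through DMSO replicate 3, and not at 4 or 12 h. On the log2 scale the fold change was 0.45 ± 0.11 at 4 h (adjusted p = 0.0024), 0.31 ± 0.10 at 8 h (adjusted p = 0.022) and 0.32 ± 0.11 at 12 h (adjusted p = 0.026). The 4 h value was 0.61 with replicate 3 alone (adjusted p = 0.00064) and 0.45 after removal of the GC trend (adjusted p = 0.0007). The 8 h call was lost without copanlisib 8 h replicate 2 or 3 or DMSO 8 h replicate 1 or 2 (0.22 to 0.30, adjusted p of 0.059 to 0.15). The 12 h call was lost without copanlisib 12 h replicate 1 or 2 or DMSO 12 h replicate 1 or 3 (0.28 to 0.32, adjusted p of 0.064 to 0.10). Its relative LAIR2 had 3.58 to 6.02 CPM over the 18 libraries.

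CD72 is a receptor for semaphorin 4D that recruits SHP-1, and it had 94 to 237 reads per library. In the copanlisib libraries it had 8.68, 9.74 and 8.66 CPM at 4 h, 8.81, 9.49 and 8.97 CPM at 8 h and 9.45, 10.97 and 9.13 CPM at 12 h. In the DMSO libraries it had 7.18, 7.92 and 7.46 CPM at 4 h, 7.17, 6.90 and 6.91 CPM at 8 h and 7.80, 7.41 and 8.94 CPM at 12 h. The groups did not overlap at any of the 3 times. On the log2 scale the fold change was 0.26 ± 0.10 at 4 h (adjusted p = 0.043), 0.38 ± 0.10 at 8 h (adjusted p = 0.0045) and 0.28 ± 0.10 at 12 h (adjusted p = 0.032). The 8 h call held under all 10 other settings and without any 1 library. The calls at 4 and 12 h were each lost under 5 of 10 other settings, with 0.20 at 4 h for replicate 3 alone (adjusted p = 0.36), while removal of the GC trend gave 0.36 at 4 h (adjusted p = 0.0052). The 4 h call was also lost without copanlisib replicate 1 or 2 or DMSO replicate 1 or 3 of that time (0.20 to 0.28, adjusted p of 0.061 to 0.19). It was lost as well without copanlisib 8 h replicate 3, DMSO 8 h replicate 3, copanlisib 12 h replicate 1 or DMSO 12 h replicate 1 (0.25 to 0.26, adjusted p of 0.05 to 0.055). The 12 h call was lost without copanlisib 12 h replicate 2 or DMSO 12 h replicate 1 or 2 (0.20 to 0.25, adjusted p of 0.11 to 0.18). Exons of CD72 overlap those of TESK1 on the other strand, and 142 to 285 reads per library were assigned to that strand at CD72.

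Of the adaptors, DOK3 carries inhibitory signals from the antigen receptor through partners such as SHIP-1. Its levels at 4 h were 90.4, 94.5 and 117 CPM in the copanlisib libraries, against 137, 145 and 141 CPM in the DMSO libraries. At 8 h it had 84.4, 87.7 and 90.4 CPM with copanlisib and 105, 102 and 104 CPM with DMSO, and at 12 h 70.7, 76.0 and 75.2 CPM with copanlisib and 83.2, 83.5 and 85.2 CPM with DMSO. Copanlisib libraries were below DMSO libraries at each time, and replicate 3 at 4 h was nearest to DMSO. As a log2 fold change this was -0.48 ± 0.06 at 4 h (adjusted p = 1.2e-06), -0.26 with replicate 3 alone (adjusted p = 0.00027) and -0.38 after removal of the GC trend (adjusted p = 1.2e-09). It was -0.24 ± 0.06 at 8 h (adjusted p = 0.0043) and -0.18 ± 0.07 at 12 h (adjusted p = 0.037). The 12 h call was lost without any 1 of the 6 libraries of that time, without copanlisib 8 h replicate 2 and without DMSO 8 h replicate 1 (-0.21 to -0.15, adjusted p of 0.05 to 0.14).

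PAG1, on the minus strand of chromosome 8, encodes the membrane adaptor that docks CSK. Levels at 4 h were 72.0, 64.6 and 63.9 CPM in the copanlisib libraries and 75.9, 76.7 and 70.2 CPM in the DMSO libraries, which overlapped. At 8 h it had 60.9, 64.0 and 65.3 CPM with copanlisib, against 89.1, 92.6 and 87.4 CPM with DMSO. At 12 h it had 66.3, 70.3 and 67.4 CPM with copanlisib, against 88.7, 92.0 and 82.8 CPM with DMSO. The groups were well apart at 8 and 12 h. On the log2 scale the fold change was -0.15 ± 0.06 at 4 h (adjusted p = 0.037), -0.50 ± 0.06 at 8 h (adjusted p = 8.8e-08) and -0.37 ± 0.06 at 12 h (adjusted p = 1.2e-05). The calls at 8 and 12 h held under all 10 other settings and without any 1 library. The 4 h value was -0.21 with replicate 3 alone (adjusted p = 0.016) and -0.26 after removal of the GC trend (adjusted p = 1.8e-05). That call was lost under 3 of 10 other settings and without copanlisib replicate 2 or 3 or DMSO replicate 1 or 2 of that time, copanlisib 8 h replicate 2, DMSO 8 h replicate 1 or DMSO 12 h replicate 2 (-0.14 to -0.12, adjusted p of 0.05 to 0.16).

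CSK closes Src family kinases by phosphorylating their tail. Its 4 h levels were 248, 260.5 and 315 CPM in the copanlisib libraries, against 315, 312 and 327 CPM in the DMSO libraries. Replicate 3 lay among the DMSO libraries, and replicates 1 and 2 lay below them. The log2 fold change of -0.21 ± 0.06 (adjusted p = 0.006) became -0.01 with replicate 3 alone (adjusted p = 0.92) and 0.07 after removal of the GC trend (adjusted p = 0.11). From the 6 libraries of that time it was -0.22 (adjusted p = 0.093). At 8 h CSK had 312, 312 and 322 CPM with copanlisib and 317, 303 and 307 CPM with DMSO, and at 12 h 396, 367 and 373 CPM with copanlisib and 332, 347 and 367 CPM with DMSO. The groups overlapped at both times. The log2 fold change was 0.03 ± 0.06 at 8 h (adjusted p = 0.76) and 0.12 ± 0.06 at 12 h (adjusted p = 0.14). The 12 h value passed the test under 4 of 10 other settings (values of 0.09 to 0.12 over all 10) and without copanlisib 4 h replicate 3 (0.12, adjusted p = 0.0081).

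**Figure D3:**
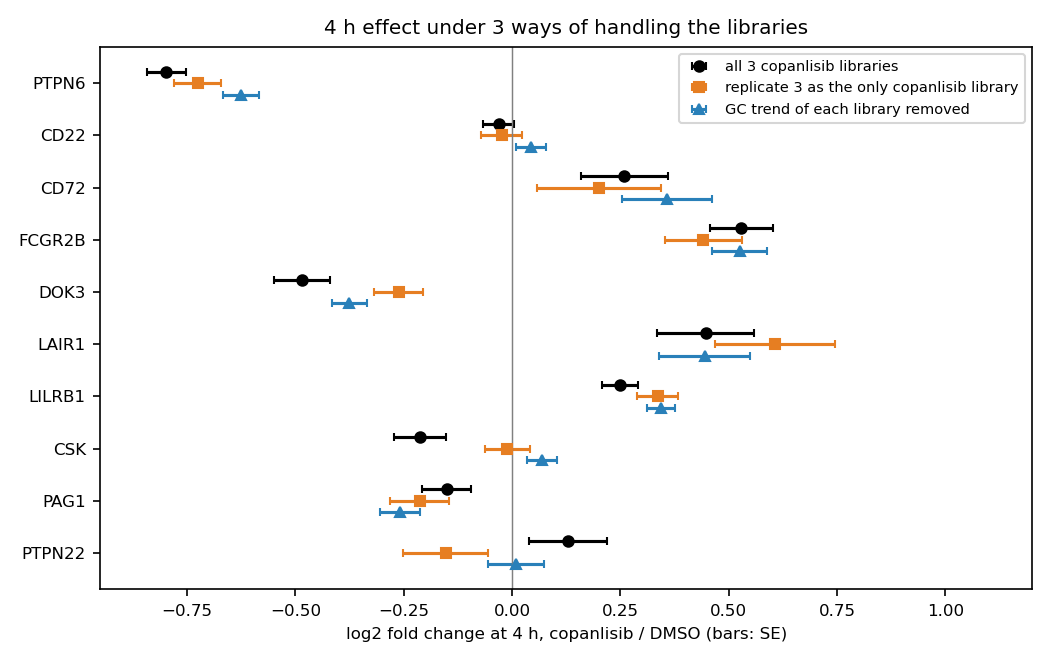
Log2 fold change of copanlisib over DMSO at 4 h with its SE for the 10 genes, from all 3 copanlisib libraries (black), with replicate 3 alone (orange) and after removal of each library's trend with gene GC content (blue). PTPN6 stays between -0.80 and -0.63, whereas CSK is at -0.21, -0.01 and 0.07.

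Of the phosphatases, PTPN6 encodes SHP-1. Its 4 h levels were 244.5, 236 and 258 CPM in the copanlisib libraries, against 437, 415 and 431 CPM in the DMSO libraries. At 8 h it had 249, 248 and 258 CPM with copanlisib and 416, 406 and 396 CPM with DMSO, and at 12 h 419, 390.3 and 379 CPM with copanlisib and 617, 603 and 632 CPM with DMSO. The 2 groups were far apart at each time: at 4 h the highest copanlisib library was at 258 CPM and the lowest DMSO library at 415 CPM. The means were 246 ± 11.2 CPM with copanlisib and 428 ± 11.4 CPM with DMSO at 4 h (SD, n = 3 each). They were 251 ± 5.70 CPM with copanlisib and 406 ± 10.1 CPM with DMSO at 8 h, and 396 ± 20.9 CPM with copanlisib and 617 ± 14.8 CPM with DMSO at 12 h. As a log2 fold change this was -0.80 ± 0.04 at 4 h (adjusted p = 3.9e-13), -0.69 ± 0.04 at 8 h (adjusted p = 6.6e-12) and -0.64 ± 0.04 at 12 h (adjusted p = 2.3e-11). The calls held under all 10 other settings and without any 1 library. At 4 h the value was -0.73 with replicate 3 alone and -0.63 after removal of the GC trend. A joint test of whether the 3 effects differed was not passed (adjusted p = 0.16). The 8 h effect minus the 4 h effect was 0.11 (adjusted p = 0.24), and -0.15 after removal of the GC trend (adjusted p = 0.11). The 12 h effect minus the 4 h effect was 0.16 (adjusted p = 0.083), and -0.05 after that removal (adjusted p = 0.62). Whether the fall was largest or smallest at 4 h thus depends on the GC trend.

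PTPN22 is a phosphatase of Src family and SYK family kinases that binds CSK. Levels at 4 h were 28.7, 26.2 and 20.7 CPM in the copanlisib libraries and 24.0, 22.5 and 23.0 CPM in the DMSO libraries, which overlapped. At 8 h it had 23.6, 23.6 and 22.5 CPM with copanlisib, against 24.9, 26.4 and 27.0 CPM with DMSO, and at 12 h 21.8, 23.7 and 25.1 CPM with copanlisib, against 31.0, 29.1 and 26.4 CPM with DMSO. Copanlisib libraries lay below DMSO libraries at 8 and 12 h with no overlap. The log2 fold change was 0.13 ± 0.09 at 4 h (adjusted p = 0.27), -0.16 ± 0.09 at 8 h (adjusted p = 0.16) and -0.29 ± 0.09 at 12 h (adjusted p = 0.012). The 4 h value was 0.01 after removal of the GC trend (adjusted p = 0.93), -0.15 with replicate 3 alone (adjusted p = 0.29) and 0.25 without that replicate (adjusted p = 0.0039). The 8 h value passed the test under 2 of 10 other settings and without copanlisib 4 h replicate 3 (-0.16, adjusted p = 0.04). The 12 h call was lost without copanlisib 12 h replicate 1 (-0.24, adjusted p = 0.076) or DMSO 12 h replicate 1 (-0.24, adjusted p = 0.079).

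Per kilobase of merged exons, PTPN6 was the most abundant of the 10 transcripts in DMSO and the third with copanlisib. Its level was 49.1, 50.2 and 79.1 CPM per kilobase with copanlisib at 4, 8 and 12 h, against 85.4, 81.1 and 123 with DMSO. CD22 had 62.8, 71.5 and 91.0 CPM per kilobase with copanlisib and 64.1, 76.0 and 92.5 with DMSO. CSK had 60.0, 69.0 and 82.9 CPM per kilobase with copanlisib and 69.6, 67.7 and 76.3 with DMSO. In DMSO the libraries of PTPN6 lay above those of CD22 and CSK at each time, with no overlap. With copanlisib they lay below both at 4 and 8 h, and at 12 h they lay below CD22 and overlapped CSK. LILRB1 followed with group means of 36.7 to 40.9 CPM per kilobase with copanlisib and 30.5 to 34.7 with DMSO. DOK3 had 15.3 to 20.9 CPM per kilobase with copanlisib and 17.4 to 29.2 with DMSO. The other 5 genes, PAG1, PTPN22, FCGR2B, CD72 and LAIR1, stayed at or below 8.73 CPM per kilobase, and PAG1, FCGR2B and PTPN22 overlapped at 4 h with copanlisib.

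Some of the 10 genes also moved with time in culture, while CD72 was called in no comparison of times within a treatment. Between 4 and 12 h, 5 were called with copanlisib, beside 51.9% of all genes, and 6 with DMSO, beside 48.6%, so neither share stood far from its background. Between 4 and 8 h, 5 were called with copanlisib (40.8% of all genes) and 6 with DMSO (29.8%), and between 8 and 12 h 5 with copanlisib (25.8%) and 6 with DMSO (25.7%). PTPN6 climbed between 8 and 12 h, by 0.66 ± 0.04 with copanlisib (log2, adjusted p = 2.5e-11) and 0.60 ± 0.04 with DMSO (adjusted p = 8.6e-11). Its libraries at 12 h with copanlisib, at 379 to 419 CPM, thus came near those of DMSO at 4 h, at 415 to 437 CPM. CD22 climbed between 4 and 12 h by 0.54 ± 0.04 with copanlisib (adjusted p = 4.3e-12) and 0.53 ± 0.04 with DMSO (adjusted p = 5.8e-12). FCGR2B climbed over the same span by 0.53 ± 0.07 with copanlisib (adjusted p = 3.3e-07) and 0.89 ± 0.07 with DMSO (adjusted p = 1.4e-10). DOK3 fell by 0.45 ± 0.07 with copanlisib (adjusted p = 2.9e-06) and by 0.75 ± 0.06 with DMSO (adjusted p = 5e-10). PAG1 climbed in DMSO by 0.24 ± 0.06 (adjusted p = 0.00081), with a copanlisib value of 0.02 ± 0.06 (adjusted p = 0.76). After removal of the GC trend PAG1 climbed in both arms, by 0.15 with copanlisib (adjusted p = 0.0053) and 0.22 with DMSO (adjusted p = 9.8e-05). DOK3 then fell by 0.58 with copanlisib and 0.74 with DMSO. CD22 climbed by 0.42 and 0.53, and FCGR2B by 0.50 and 0.88. CSK climbed by 0.22 with copanlisib and 0.20 with DMSO, against 0.47 and 0.13 before that removal. LILRB1 was at -0.18 with copanlisib (adjusted p = 1e-05), against -0.05 before (adjusted p = 0.31).

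Whether the effect of copanlisib itself changed with time was tested on the differences between effects, given as log2. Between 8 and 4 h, 3 of the 10 genes passed, beside 19.1% of all genes: PAG1 (-0.35 ± 0.08, adjusted p = 0.0047), FCGR2B (-0.29 ± 0.10, adjusted p = 0.039) and CSK (0.24 ± 0.08, adjusted p = 0.045). Between 12 and 4 h, 4 passed, beside 16.7% of all genes: CSK (0.33 ± 0.08, adjusted p = 0.0085), FCGR2B (-0.36 ± 0.10, adjusted p = 0.014), PTPN22 (-0.42 ± 0.13, adjusted p = 0.021) and DOK3 (0.30 ± 0.09, adjusted p = 0.026). Between 12 and 8 h, 0 of the 10 passed by edgeR, DESeq2 or limma-voom, and 0 had an unadjusted p under 0.05 in edgeR, beside 0.0558% of all genes called.

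These differences depended on the copanlisib libraries of 4 h. With replicate 3 alone, 1 gene passed between 8 and 4 h, PAG1 at -0.29 (adjusted p = 0.038), and 0 passed by edgeR between 12 and 4 h, where 2 had an unadjusted p under 0.05 and the lowest adjusted p was 0.12. Removal of the GC trend left FCGR2B called in both contrasts, at -0.32 between 8 and 4 h and -0.38 between 12 and 4 h (adjusted p = 0.016 and 0.0018). It ended the other calls between 8 and 4 h, with PAG1 at -0.17 and CSK at -0.13 (adjusted p = 0.089 and 0.084), and between 12 and 4 h, with CSK at 0.02, DOK3 at 0.15 and PTPN22 at -0.22 (adjusted p = 0.87, 0.091 and 0.11). It also brought in CD22 (-0.19, adjusted p = 0.0079) and LILRB1 (-0.14, adjusted p = 0.047) between 8 and 4 h and LILRB1 between 12 and 4 h (-0.20, adjusted p = 0.0028). Without copanlisib 4 h replicate 1 or 2, the FCGR2B difference between 8 and 4 h was -0.27 and -0.28 and did not pass (adjusted p = 0.085 and 0.084), and neither did it without DMSO 4 h replicate 1 or 2, copanlisib 8 h replicate 2 or 3 or any 1 of the DMSO 8 h replicates (-0.30 to -0.22). The CSK difference between 8 and 4 h was lost without any 1 library other than copanlisib 4 h replicate 3, copanlisib 12 h replicate 1 and DMSO 12 h replicate 3 (0.17 to 0.26), and that between 12 and 4 h without copanlisib 4 h replicate 2 (0.28, adjusted p = 0.05). The DOK3 difference between 12 and 4 h was lost without copanlisib replicate 1 or 2 or DMSO replicate 2 or 3 of 4 h, or copanlisib replicate 2 or 3 or DMSO replicate 1 or 2 of 12 h (0.23 to 0.30). The PTPN22 difference was lost without copanlisib 4 h replicate 1, DMSO 4 h replicate 3, copanlisib 12 h replicate 1 or DMSO 12 h replicate 1 (-0.42 to -0.32). Without copanlisib 4 h replicate 3, by contrast, PTPN6 passed between 8 and 4 h (0.14, adjusted p = 0.034) and between 12 and 4 h (0.19, adjusted p = 0.0038). So did DOK3 and PTPN22 between 8 and 4 h (0.36 and -0.41, adjusted p = 3e-06 and 0.00062) and PAG1 between 12 and 4 h (-0.25, adjusted p = 0.0048), the last also without DMSO 12 h replicate 3 (-0.26, adjusted p = 0.036).

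The wider pathway was described with 3 lists. Of 44 other genes that restrain antigen receptor signals, 37 were tested, and 6 were higher and 10 lower at 4 h, 10 higher and 9 lower at 8 h, and 11 higher and 8 lower at 12 h. The shares called over all genes were 38.4%, 33.1% and 30.3% at those times, and nothing particular to this or the other lists is read from their counts. Their median log2 fold change was 0.05, 0.01 and 0.06. The number called at 4 h was 10 in place of 16 without copanlisib 4 h replicate 2 or DMSO 4 h replicate 3, and 9 with replicate 3 alone. After removal of the GC trend 12 were higher and 9 lower at 4 h. Of 29 genes that carry the signal forward, all 29 were tested, and 11 were higher and 5 lower at 4 h, 8 higher and 4 lower at 8 h, and 10 higher and 6 lower at 12 h. Their medians were 0.09, 0.03 and 0.04, and at 4 h 8 were higher and 1 lower with replicate 3 alone, and 10 higher and 3 lower after removal of the GC trend.

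Among the other brakes, CBLB, a ubiquitin ligase that marks signalling proteins for degradation, was higher at all 3 times. Its 4 h levels were 70.8, 72.6 and 58.6 CPM with copanlisib, against 35.8, 38.4 and 34.0 CPM with DMSO. Its log2 fold change was 0.90 ± 0.07 at 4 h (adjusted p = 7.7e-11) and 0.70 with replicate 3 alone, and it was 0.40 ± 0.07 at 8 h (adjusted p = 5.4e-05) and 0.42 ± 0.07 at 12 h (adjusted p = 6e-05). INPP5D, which encodes SHIP-1, was higher at each time, by 0.22 ± 0.04, 0.32 ± 0.04 and 0.26 ± 0.04 (adjusted p = 6e-05, 2.6e-07 and 8.4e-06). The lipid phosphatase INPP5D and the tyrosine phosphatase PTPN6 thus went in opposite directions. SIRPA, an inhibitory receptor that recruits SHP-1 and is best known from myeloid cells, had 67.8, 73.8 and 78.0 CPM with copanlisib at 4 h and 108, 111 and 104 CPM with DMSO. It fell by 0.56 ± 0.05 at 4 h, 0.49 ± 0.05 at 8 h and 0.50 ± 0.05 at 12 h on the log2 scale (adjusted p = 3.2e-09, 5e-08 and 6.9e-08).

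PTPN12, another tyrosine phosphatase, fell by 0.41 ± 0.07 at 8 h (adjusted p = 4.8e-05) and 0.36 ± 0.07 at 12 h (adjusted p = 0.00031). Its 4 h value of -0.17 ± 0.07 (adjusted p = 0.047) no longer passed without any 1 library other than copanlisib 4 h replicate 1, and was -0.06 without copanlisib 4 h replicate 3 (adjusted p = 0.29). It was larger with replicate 3 alone, at -0.43 (adjusted p = 2.8e-07), and after removal of the GC trend, at -0.29 (adjusted p = 2e-06). LILRB4, a relative of LILRB1, fell by 0.33 ± 0.06 at 8 h and 0.40 ± 0.07 at 12 h (adjusted p = 0.00018 and 3.3e-05). At 4 h it stood at -0.11 ± 0.06 (adjusted p = 0.18), at -0.16 without copanlisib 4 h replicate 3 (adjusted p = 0.02), at 0.0037 with replicate 3 alone (adjusted p = 0.98) and at -0.16 after removal of the GC trend (adjusted p = 0.028). DOK2, a relative of DOK3, fell by 0.55 ± 0.10 at 4 h (adjusted p = 5.3e-05), with -0.30 for replicate 3 alone (adjusted p = 0.045) and -0.36 after removal of the GC trend (adjusted p = 0.00033). It stood at -0.06 ± 0.10 at 8 h (adjusted p = 0.69) and -0.29 ± 0.10 at 12 h (adjusted p = 0.03). That 12 h call was lost without copanlisib 12 h replicate 2 or 3 or DMSO 12 h replicate 1 or 2 (-0.28 to -0.23, adjusted p of 0.089 to 0.13).

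A further 3 scarce receptors were singled out after their values were seen. PDCD1, which encodes PD-1, had 2.23, 1.94 and 2.44 CPM with copanlisib at 4 h, against 7.70, 8.37 and 9.36 CPM with DMSO. Its log2 fold change was -1.95 ± 0.16 at 4 h (adjusted p = 4.7e-10), -0.88 ± 0.17 at 8 h (adjusted p = 0.00025) and -1.08 ± 0.21 at 12 h (adjusted p = 0.00025). FCRL5, an Fc receptor-like protein of B cells, fell by 1.12 ± 0.21 at 8 h and 1.38 ± 0.22 at 12 h (adjusted p = 0.00019 and 2.2e-05). Its 4 h value of -0.66 ± 0.22 (adjusted p = 0.018) did not pass without DMSO 4 h replicate 3 (-0.48, adjusted p = 0.14) or with replicate 3 alone (-0.77, adjusted p = 0.083). SIGLEC6, a relative of CD22, had 2.23, 2.51 and 2.23 CPM with copanlisib at 12 h, against 5.35, 6.07 and 4.16 CPM with DMSO, a log2 fold change of -1.16 ± 0.17 (adjusted p = 5.7e-06). Its 4 h value of 0.45 ± 0.16 (adjusted p = 0.028) was lost without copanlisib 4 h replicate 1 or DMSO 4 h replicate 1 or 3 (0.38 to 0.44, adjusted p of 0.075 to 0.10) and with replicate 3 alone (0.49, adjusted p = 0.11). Its 8 h value of -0.43 ± 0.16 (adjusted p = 0.035) was lost without copanlisib 8 h replicate 1 or 2 or any 1 of the DMSO 8 h replicates (-0.46 to -0.30, adjusted p of 0.054 to 0.18). The 4 h call was also lost with DESeq2, counts without strand and the 6 libraries of that time (0.36 to 0.45). With DESeq2, counts without strand and no filter the 8 h call was lost too (-0.45 to -0.42). The 12 h call of SIGLEC6 held in every alternative.

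LYN, the kinase that phosphorylates the inhibitory motifs, passed the test at no time. Its log2 fold change was 0.09 ± 0.05 at 4 h (adjusted p = 0.12), -0.09 ± 0.05 at 8 h (adjusted p = 0.13) and 0.05 ± 0.05 at 12 h (adjusted p = 0.49). The 4 h value passed without copanlisib 4 h replicate 3 (0.15, adjusted p = 0.0015) or DMSO 4 h replicate 1 (0.13, adjusted p = 0.048), and the 8 h value without copanlisib 4 h replicate 3 (-0.09, adjusted p = 0.03). With replicate 3 alone the 4 h value was -0.01 (adjusted p = 0.88), and after removal of the GC trend 0.01 (adjusted p = 0.80). The related kinase BLK was higher at every time, by 0.45 ± 0.05, 0.76 ± 0.05 and 0.63 ± 0.05 (adjusted p = 6.8e-08, 8e-12 and 2.3e-10). SYK, the kinase that binds the phosphorylated receptor, had 49.7, 51.3 and 49.0 CPM with copanlisib at 4 h, against 38.03, 39.4 and 37.7 CPM with DMSO. It was higher by 0.38 ± 0.05, 0.40 ± 0.05 and 0.37 ± 0.05 at 4, 8 and 12 h (adjusted p = 2.6e-06, 7.2e-07 and 1.7e-06).

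CD79B, a signalling chain of the antigen receptor, was higher at 8 h (0.63 ± 0.08, adjusted p = 9.1e-07) and 12 h (0.90 ± 0.08, adjusted p = 2.3e-09). At 4 h it stood at 0.11 ± 0.09 (adjusted p = 0.32), at 0.38 with replicate 3 alone (adjusted p = 0.00023) and at 0.29 after removal of the GC trend (adjusted p = 7.3e-05). RASGRP3, which activates RAS, was higher by 0.63 ± 0.05, 0.32 ± 0.05 and 0.26 ± 0.05 (adjusted p = 1.3e-09, 3.8e-05 and 0.00047). MALT1, a protease of the pathway to NF-kB, fell by 0.26 ± 0.06, 0.38 ± 0.06 and 0.21 ± 0.06 (adjusted p = 0.00094, 1.4e-05 and 0.0091). Its 4 h value was -0.48 with replicate 3 alone (adjusted p = 2.1e-10), so the order of its effects over time depends on those libraries. BANK1, an adaptor, was at 0.42 ± 0.07 at 4 h (adjusted p = 4.8e-05) but at 0.18 with replicate 3 alone (adjusted p = 0.061). It was at 0.15 ± 0.07 at 8 h and 0.18 ± 0.07 at 12 h (adjusted p = 0.11 and 0.054). Those values passed the test without copanlisib 4 h replicate 3 (0.15 and 0.18, adjusted p = 0.011 and 0.0016), and the 12 h value also without copanlisib 4 h replicate 1 (0.18, adjusted p = 0.023). After removal of the GC trend the 8 and 12 h values passed too, at 0.24 and 0.25 (adjusted p = 9.4e-05 and 2.4e-05).

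Ligands of the receptors formed the third list, with 10 of 13 genes tested. Of these, 1 was higher and 3 lower at 4 h, 2 higher and 1 lower at 8 h, and 4 higher and 1 lower at 12 h. The number called at 4 h was 2 in place of 4 without copanlisib 4 h replicate 2, DMSO 4 h replicate 1 or DMSO 4 h replicate 3, and at 8 h it was 5 in place of 3 without copanlisib 4 h replicate 3. With replicate 3 alone it was 1 at 4 h. COL1A1, a collagen chain and so a ligand of LAIR1, had 24.5, 27.5 and 26.3 CPM with copanlisib at 12 h, against 12.7, 16.3 and 15.1 CPM with DMSO. It was higher by 0.51 ± 0.10 at 8 h (adjusted p = 0.00019) and 0.83 ± 0.10 at 12 h (adjusted p = 5.1e-07), with 0.00 ± 0.10 at 4 h (adjusted p = 0.98). The 4 h value was 0.20 with replicate 3 alone (adjusted p = 0.21) and 0.22 after removal of the GC trend (adjusted p = 0.051). COL1A1 is also 1 of 10 stroma and epithelium markers, of which 6 reached 1 CPM. Their sum at 12 h, which takes in COL1A1 itself, was 79.3 to 82.0 CPM with copanlisib and 52.6 to 57.3 CPM with DMSO. The most abundant beside COL1A1 were the keratins KRT18 and KRT8, with at most 29.2 and 20.8 CPM. COL1A2, COL3A1, DCN and VWF had at most 2 reads in any library. The part of these markers in the COL1A1 value was not tested.

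HLA-E, a class I HLA gene, was higher by 0.25 ± 0.04 at 8 h and 0.29 ± 0.04 at 12 h (adjusted p = 5e-05 and 6.1e-06), with 0.05 ± 0.04 at 4 h (adjusted p = 0.35). The 4 h value was 0.12 with replicate 3 alone (adjusted p = 0.058) and 0.12 after removal of the GC trend (adjusted p = 0.004). B2M, the light chain shared by class I HLA molecules, was higher by 0.16 ± 0.04 at 12 h (adjusted p = 0.0044). At 4 and 8 h B2M stood at 0.06 ± 0.04 and 0.01 ± 0.04 (adjusted p = 0.31 and 0.86), with 4 h values of 0.0033 for replicate 3 alone and -0.05 after removal of the GC trend (adjusted p = 0.97 and 0.34). ST6GAL1, the enzyme that makes the sialic acid linkage bound by CD22, fell by 0.28 ± 0.04 at 12 h (adjusted p = 1.5e-05), with -0.04 ± 0.04 at 4 h (adjusted p = 0.43) and -0.09 there after removal of the GC trend (adjusted p = 0.041). Its 8 h value of -0.14 ± 0.04 (adjusted p = 0.016) was lost without copanlisib 8 h replicate 1 or DMSO 8 h replicate 1 or 2 (-0.13 to -0.11, adjusted p of 0.052 to 0.094). SEMA4D, the ligand of CD72, was higher by 0.15 ± 0.05 at 4 h (adjusted p = 0.018), a call lost without DMSO 4 h replicate 1 (0.10, adjusted p = 0.14). At 8 and 12 h it stood at 0.02 ± 0.05 and 0.07 ± 0.05 (adjusted p = 0.84 and 0.34).

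**Figure D4:**
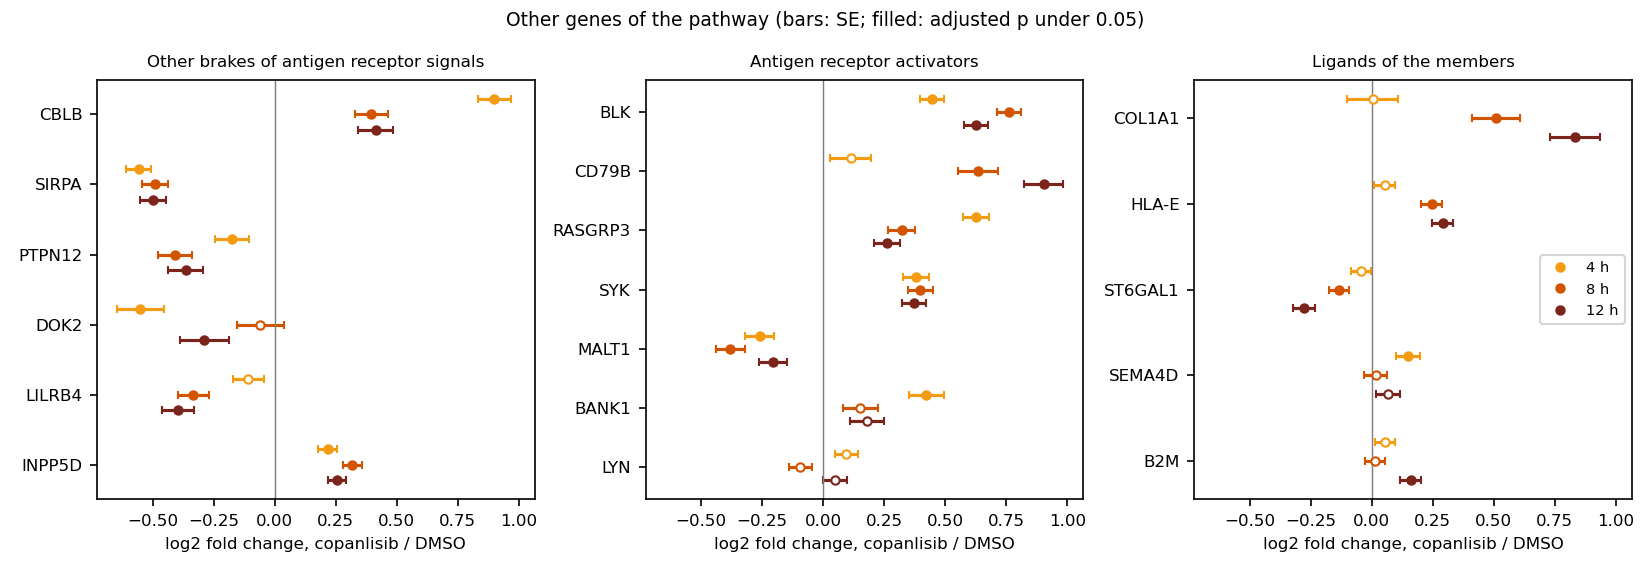
Log2 fold change of copanlisib over DMSO with its SE at 4 h (yellow), 8 h (orange) and 12 h (dark red) for genes of the 3 lists, filled where the adjusted p was under 0.05. BLK, SYK, RASGRP3, CBLB and INPP5D lie to the right of 0 at all 3 times, with CBLB at 0.90, 0.40 and 0.42, and SIRPA and MALT1 lie to the left.

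Marker genes were set beside these values. The B cell list summed to 3870 to 4530 CPM with copanlisib and 4138 to 4237 CPM with DMSO at 4 h, and to 4552 to 4664 CPM with copanlisib and 4139 to 4246 CPM with DMSO at 8 h. At 12 h it summed to 4865 to 5079 CPM with copanlisib and 4283 to 4404 CPM with DMSO. CD74, with at most 3209 CPM, was the largest single part of these sums. The list also holds BLK, CD79B and BANK1, described above. T and NK cell markers, of which 3 of 12 reached 1 CPM, summed to 14.9 to 19.5 CPM with copanlisib and 18.2 to 22.9 CPM with DMSO over the 3 times. Myeloid markers, of which 4 of 12 reached 1 CPM and CD163 had no read, summed to 8.93 to 14.1 CPM with copanlisib and 7.77 to 11.3 CPM with DMSO. The part of these levels in the results was not tested.

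Across the 18 libraries, the genes whose log2 CPM followed PTPN6 most closely among 9530 candidates were PNP (Pearson r = 0.99), TUBA1C (0.98) and TUBB2A (0.97). For LAIR1 they were SMAD3 (0.92), SEMA4B (0.89) and CNNM3 (0.87), and for PAG1 they were PSMD14 (0.96), NUP160 (0.95) and CYCS (0.95). These values describe libraries that share treatment and time, and carry no test.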

How the data were processed

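The authors deposited 1 table of raw read counts per gene for each of 18 libraries. CASAVA 1.7 and STAR 2.5.2b are named, with hg38, per the submitters' processing notes; which annotation release was used is not stated in the sources used here. Each table counts every gene without strand and on either strand. Although the kit in the labels keeps no strand, 1 strand column held 94.3% to 95.3% of strand-assigned reads and was used. The 4 summary lines of a table (unmapped, multi-mapping, no gene, ambiguous) stayed outside library sizes, and 67.5% to 75.2% of all reads were gene reads.

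Groups and times came from the labels. Of 60483 identifiers, 56321 found a name in a gene name table and 432 more in GENCODE 29, and 3730 found none. With R 4.3.3 and edgeR 4.0.16, 16122 of 35239 genes with any read passed filterByExpr. Counts were TMM-scaled and all 18 libraries entered 1 model with 6 group means (glmQLFit, glmQLFTest, two-sided, Benjamini-Hochberg, threshold 0.05). Each SE is the log2 fold change over the root of F. CPM use TMM-scaled library sizes. The other 10 settings were no filter, size factors of DESeq2 within edgeR, DESeq2 1.42.0, limma-voom (limma 3.58.1), counts without strand, a replicate block, a GC correction, both together, replicate 3 as the lone copanlisib 4 h library, and the 6 libraries of a time. Each library was also left out in turn. The fit was tested on simulated data in which all groups had the same spread per gene. That test cannot show how the fit handles the copanlisib 4 h libraries, which differed more among themselves. Replicates differed by more than sampling noise (chi-square per gene of at least 1.52), so all were kept.

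The members were chosen by name, and they, the gene lists and the alternatives were put together with earlier results of these data known. Beside the 10 members, up to 6 genes of each of 3 lists are named, those called in the average over times and with a mean log2 CPM of 3 or more whose average change was largest in size, plus INPP5D and LYN. Genes alike were sought for PTPN6 and the 2 members with the next largest average changes, by correlation of log2 CPM with a prior count of 2. Promoter sequences are from RefSeq, on GRCh38.p14.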

Additional observations from a re-analysis of the deposited data

Results flagged for a closer look

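For 5 members the joint test of a different copanlisib effect at 4, 8 and 12 h was passed, beside 18.6% of all genes tested: PAG1 (adjusted p = 0.0092), CSK (0.016), FCGR2B (0.024), DOK3 (0.041) and PTPN22 (0.042). In each, the 4 h effect differed from that at 8 h or 12 h. Replicates 1 and 2 of copanlisib at 4 h lay on 1 side of replicate 3 for all 5 genes. For PAG1, replicate 2 was close to replicate 3 (64.6 and 63.9 CPM) and replicate 1 above both (72.0 CPM). After removal of the GC trend the PAG1 difference between 8 and 4 h was -0.17 and did not pass (adjusted p = 0.089), while the FCGR2B differences with 4 h did. The difference between 8 and 4 h for PAG1 passed with replicate 3 alone, whereas those of CSK, FCGR2B, DOK3 and PTPN22 with 4 h did not.

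Among the other brakes named above, the same test was passed by SIGLEC6 (adjusted p = 0.00019), with log2 fold changes of 0.45, -0.43 and -1.16 at 4, 8 and 12 h, CBLB (0.00089), PDCD1 (0.0062), DOK2 (0.032) and LILRB4 (0.048). SIRPA, PTPN12, INPP5D and FCRL5 did not pass (adjusted p of 0.17 to 0.75). SIGLEC6, PDCD1 and FCRL5 had been singled out after their values were seen, and the SIGLEC6 calls at 4 and 8 h were lost under other settings. CBLB and PDCD1 had their largest effects at 4 h, and LILRB4 at 12 h.

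Of the genes that carry the signal forward, CD79B (adjusted p = 0.00022), RASGRP3 (0.0035) and BLK (0.0082) passed, CD79B with its largest effect at 12 h and RASGRP3 at 4 h. Of the ligands, COL1A1 (0.0012), HLA-E (0.012) and ST6GAL1 (0.021) passed, each with its largest effect at 12 h. The part of replicates 1 and 2 of copanlisib at 4 h in these joint tests was not tested.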

How the results depend on the processing

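Over 120 results on the members, 3267 alternative values were computed: 3063 kept their side of the threshold, 68 passed it anew and 126 no longer passed. Another 10 changed sign where the main value, the alternative or both passed. Sign changes with neither value past the threshold are counted among the 3063. These 10 sign changes came with the GC correction or with replicate 3 alone at 4 h, and the cause was not tested. With the GC correction, alone and with the replicate block, CSK at 4 h was 0.0693 and 0.0692 (against -0.21), its effect difference between 8 and 4 h -0.13 and -0.13 (against 0.24), its copanlisib change between 8 and 4 h -0.0486 and -0.0485 (against 0.20), and that of PTPN6 -0.15 and -0.15 (against 0.03). The LILRB1 difference between 8 and 4 h was -0.14 with the GC correction (against 0.02). With replicate 3 alone, the CSK copanlisib change between 8 and 4 h was -0.0045. In the fits that kept every library or changed the setting, 50 sign changes were between values of which neither passed. Fits that left out a library in turn were not counted there, although sign changes occurred in them too. The count of 50 may also take in named genes other than the members.

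From the 6 libraries of that time alone, 5 members and 3733 genes were called at 4 h, against 8 and 6195. Replicate 3 alone gave 3778 genes at 4 h, 409 genes and 1 member for the difference between 8 and 4 h (against 3086 and 3), and 900 genes and 0 members between 12 and 4 h (against 2688 and 4). The GC correction, alone and with the replicate block, gave 1300 and 1306 genes between 8 and 4 h, and 2 and 2 members between 12 and 4 h.

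With 1 library left out, 6 to 8 members and 4903 to 7857 genes were called at 4 h, 6 to 9 and 4312 to 6670 at 8 h, and 3 to 9 and 3909 to 6206 at 12 h. Between 8 and 4 h the ranges were 1 to 6 and 1650 to 6353, and between 12 and 4 h 2 to 6 and 1596 to 5781.

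Replicate numbers did not pair the libraries: same-numbered libraries of different groups had correlations of -0.09 to 0.10 (1 of 45 above 0.1), and 7 of 18 libraries correlated best with their own number. The replicate block gave 6206, 5301 and 4887 genes called at 4, 8 and 12 h (against 6195, 5336 and 4882) and 8, 7 and 7 members, as in the fit without it. CD72 and LAIR1, with at most 237 and 358 reads per library, are the members whose precision depth limits most.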
